A study of Mus musculus with 15 samples.

Results

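Tubulin isotypes were followed in mouse liver after chemical injury, across 9 genes chosen by name: the alpha isotypes Tuba1a, Tuba1b, Tuba1c, Tuba4a and Tuba8, and the beta isotypes Tubb2a, Tubb2b, Tubb5 and Tubb6. The rule for that choice used no measured value, but it was made with earlier results of these data known. An array probe set, a group of short probes for 1 transcript, was taken for a gene when its only annotated symbol was that gene's. Of the 9 genes, 7 had probe sets of their own, 13 in all, among 18193 symbols and 34945 such probe sets on the array. Tuba1b and Tuba1c had none, only probe sets that carry 2 symbols, so no level is given for either gene. Of the 13 probe sets, 10 reached a log2 value of 4 on at least 3 arrays and were tested among 15541 that did so. The 3 others, 1 each of Tuba4a, Tuba8 and Tubb6, stayed below that filter.

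RNA was measured in 15 liver samples of mice aged 15 weeks, 1 array each. Untreated wild type (3 arrays) was the C3H/HeOuJ strain without any agent. Treated wild type (4 arrays) was the same strain given diethylnitrosamine (DEN, a liver carcinogen) once at 12 weeks, 100 mg/kg, and carbon tetrachloride (CCl4, a liver toxin) at 13 and at 15 weeks, 0.50 ml/kg each. These livers were taken 48 hours after the last CCl4 dose. Treated mutant (4 arrays) was C3H/HeJ, which carries the P712H change in Tlr4, the receptor for bacterial lipopolysaccharide, and had the same DEN and CCl4. The antibiotic group (4 arrays) was C3H/HeOuJ that drank ampicillin, neomycin and metronidazole, 1 g/l each, and vancomycin, 500 mg/l, for 2 weeks from week 10, and then had DEN and CCl4. All the groups except the first therefore share DEN and CCl4. No untreated mutant and no group on antibiotics alone was analysed here, and strain and Tlr4 change cannot be told apart. The labels do not say that replicates came from separate animals, so p-values measure the spread between these samples. A further label text on another age and a liver resection contradicts the rest and was set aside, and every array but mutant replicate 1, which lacks the entry, is labelled male.

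As background, microtubules are hollow polymers of tubulin dimers, each 1 alpha and 1 beta chain, and they carry cell division, transport and cell shape. Mammals encode several alpha and beta isotypes, which differ mostly in their acidic tails and in the tissues that use them. Hepatocytes keep dense microtubule arrays for secretion and bile flow. Cells also hold tubulin messages in check: free dimers trigger the decay of tubulin mRNAs as these are translated, so messages of many isotypes fall when dimers are in excess.

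The promoters of 4 isotypes are shown to set side by side the measured genes with an entry that were called higher after treatment: Tuba1a, Tubb2a and Tubb5, with the larger rises, and Tuba4a, with the smallest. Sequences are from RefSeq on GRCm38.p6, 250 bases before to 50 after the annotated start, and 7 of the 9 genes have an entry. Tubb2b and Tubb6 are named only. Windows lie on the minus strand at chr15:98953452-98953751 for Tuba1a, chr1:75219245-75219544 for Tuba4a, chr13:34077959-34078258 for Tubb2a and chr17:35838252-35838551 for Tubb5, and each is written 5′ to 3′ along the gene. Capitals mark motifs searched on both strands: the CCAAT box, the TATAA letters of a TATA box, the GC box GGGCGG, which on the other strand reads CCGCCC here, and the cyclic AMP element TGACGTCA.
Tuba1a: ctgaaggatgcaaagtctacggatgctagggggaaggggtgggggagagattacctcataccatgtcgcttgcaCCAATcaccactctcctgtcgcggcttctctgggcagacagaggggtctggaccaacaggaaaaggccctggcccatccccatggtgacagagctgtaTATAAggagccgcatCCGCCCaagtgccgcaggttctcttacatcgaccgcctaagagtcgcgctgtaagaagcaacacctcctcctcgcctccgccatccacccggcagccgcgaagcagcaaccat
Tuba4a: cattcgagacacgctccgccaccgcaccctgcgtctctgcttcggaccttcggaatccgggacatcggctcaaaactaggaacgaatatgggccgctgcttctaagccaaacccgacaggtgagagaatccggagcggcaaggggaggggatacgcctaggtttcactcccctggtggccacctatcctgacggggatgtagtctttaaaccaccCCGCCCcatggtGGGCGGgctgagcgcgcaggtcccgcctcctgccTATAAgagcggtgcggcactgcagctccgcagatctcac
Tubb2a: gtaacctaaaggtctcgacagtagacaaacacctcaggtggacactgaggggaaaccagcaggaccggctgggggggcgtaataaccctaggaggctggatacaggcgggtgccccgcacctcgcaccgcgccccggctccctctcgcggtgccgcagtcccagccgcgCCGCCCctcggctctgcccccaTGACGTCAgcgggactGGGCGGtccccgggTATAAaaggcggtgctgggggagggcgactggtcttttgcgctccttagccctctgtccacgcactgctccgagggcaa
Tubb5: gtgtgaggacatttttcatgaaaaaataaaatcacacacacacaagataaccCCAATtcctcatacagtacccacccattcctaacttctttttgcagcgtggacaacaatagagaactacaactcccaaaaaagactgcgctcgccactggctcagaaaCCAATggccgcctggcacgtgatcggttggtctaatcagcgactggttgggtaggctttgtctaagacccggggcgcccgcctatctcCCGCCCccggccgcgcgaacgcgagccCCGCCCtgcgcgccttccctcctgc
With the annotated start at 0, Tubb2a held TATAA at -29, TGACGTCA at -59 and GGGCGG at -81 and -43. Tuba1a held CCAAT at -176, TATAA at -78 and GGGCGG at -63. Tubb5 held CCAAT at -198 and -90 and GGGCGG at -2 and 25, with no TATAA. Tuba4a held GGGCGG at -35 and -23 and TATAA at 11, past the start. Among 32851 promoters of this length, CCAAT occurred in 37.4%, TATAA in 24.9%, GGGCGG in 35.7% and TGACGTCA in 1.79%. TTTGAA, also searched, was in 17.9% of them and in none of the 7 tubulin windows. The windows of Tuba1b and Tuba1c held GGGCGG and CCAAT respectively, and that of Tuba8 none of the 5. These matches describe letters, not binding sites.

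Values are log2 GCRMA summaries as deposited, so a difference of 1 is a doubling, and values under 4 were read as close to background. Arrays of a group correlated at 0.976 to 0.993 over the kept probe sets. All 8 hepatocyte markers were measured, with a summed linear signal of 137603 to 150372 on untreated and 106677 to 129697 on treated arrays. Centring each array on its median would move the median difference between treated and untreated wild type from 0.09 to -0.14, and quantile normalisation would move it to -0.10. Under neither did a called tubulin probe set change direction. A gene was called higher or lower at a limma adjusted p under 0.05, taking its probe set with the highest mean. By that rule 3 of the 8 hepatocyte markers were lower and 0 higher in treated than in untreated wild type. These were Cyp2e1, 9.89-fold lower, Serpina1c, 1.27-fold, and Hnf4a, 1.21-fold. In whole liver, fewer cells of a type and less RNA per cell cannot be told apart.

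Treated and untreated wild-type livers were compared first, for the response of tubulin messages to DEN and CCl4. Tubb6, a minor beta isotype of most tissues, was near background in untreated liver and at least 66.4-fold higher after treatment. Tubb2a rose 14.1-fold, Tuba1a 11.1-fold and Tubb5, the most widely used beta isotype, 10.9-fold. Tuba4a, the alpha isotype already bright in untreated liver, rose only 1.5-fold. In counts, 6 of the 7 measured genes were called higher and 0 lower, the exception being Tuba8. Over all 9482 genes 35.5% were called higher and 26.3% lower. After centring these shares were 27% and 37.2%, with 5 tubulin genes called higher, and after quantile normalisation 29.2% and 32.8%, with 6. On all 10 tested tubulin probe sets the 12 treated arrays of the 3 treated groups lay above the 3 untreated ones, as they did on 22.5% of the 15541. Tuba8, Tubb2b and the second Tubb2a probe set entered the test only through treated arrays. Tubb6, with 2 untreated arrays at 4 or above, also needed treated arrays to pass the filter. These counts are therefore no support on their own.

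**Figure D1:**
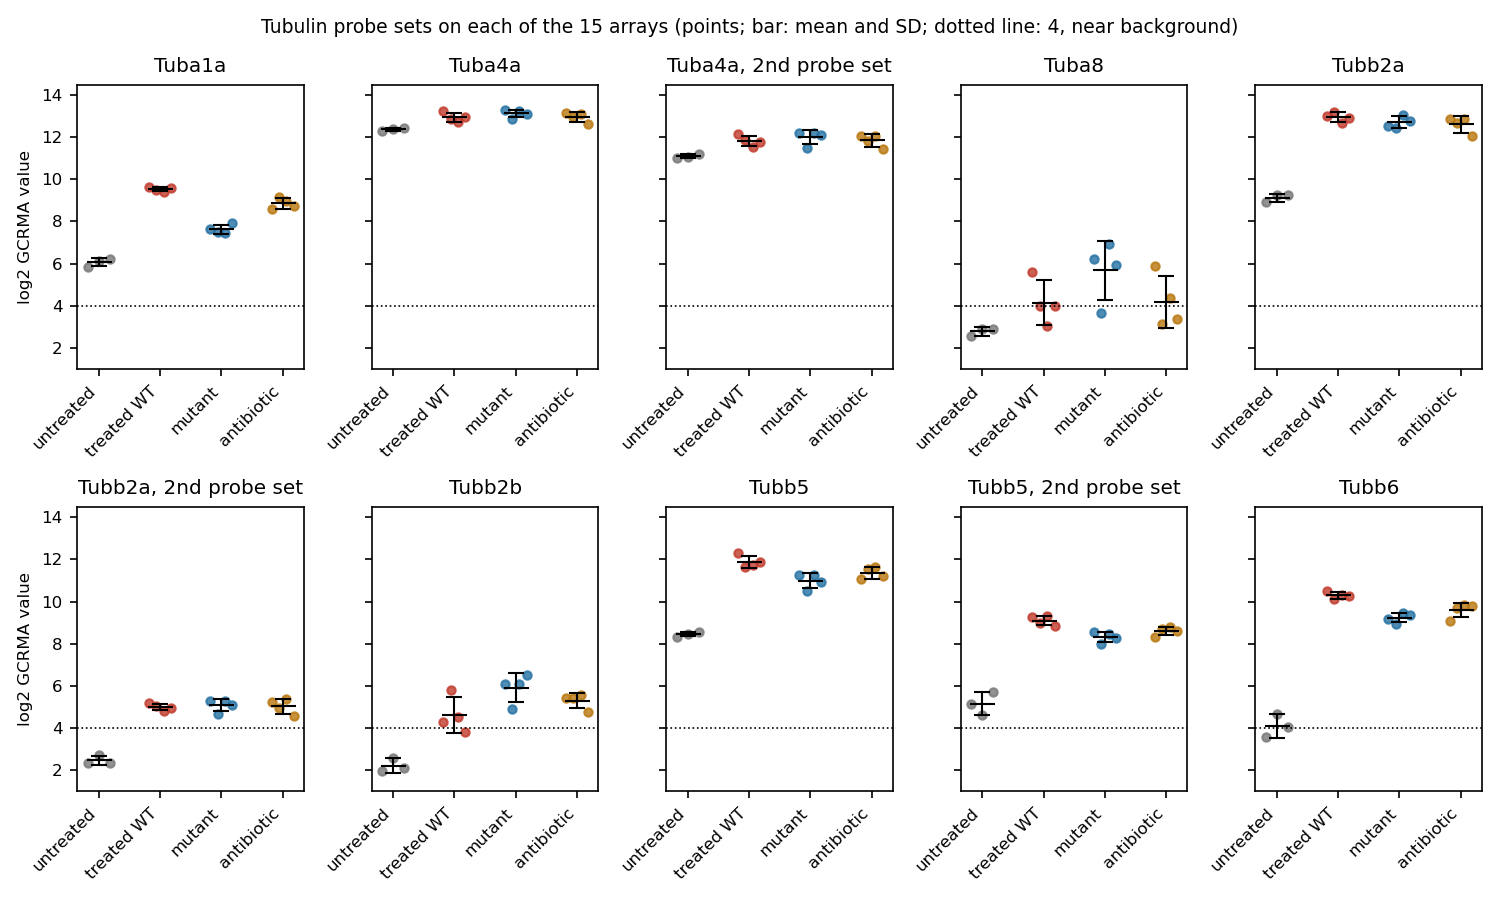
Log2 GCRMA value (vertical axis) of the 10 tested tubulin probe sets on each of the 15 arrays by group, with bars for the mean and SD (n = 3 untreated, 4 in each other group) and a dotted line at 4. Tubb6, Tubb5, Tubb2a and Tuba1a lie far above the untreated arrays in every treated group, and Tuba8 spreads widely within each treated group.

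Among the alpha isotypes, Tuba1a, known above all from developing neurons, read 5.84, 6.12 and 6.24 on the untreated arrays and 9.64, 9.48, 9.42 and 9.60 on the treated wild-type arrays. Every treated array lay above every untreated one, by far more than the spread within either group. The log2 difference was 3.47 ± 0.16 (SE; adjusted p = 3.3e-10). The _x_at suffix of its probe set marks probes that may also bind near-identical transcripts, so signal from other alpha isotypes cannot be told apart from that of Tuba1a.

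Tuba4a is an alpha isotype whose encoded chain lacks the final tyrosine that most alpha chains carry. It read 12.30, 12.40 and 12.41 untreated and 13.24, 12.87, 12.73 and 12.97 in treated wild type. The groups did not overlap, but the step was small, 0.58 ± 0.16 (adjusted p = 0.00486). Its second probe set read 11.02, 11.05 and 11.19 and then 12.13, 11.89, 11.55 and 11.79, a difference of 0.75 ± 0.20 (adjusted p = 0.00426). Both probe sets were called in the same direction. With each array centred the first difference was 0.35 (adjusted p = 0.0504) and no longer called. The third Tuba4a probe set stayed between 2.81 and 3.20 on all arrays.

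Tuba8, a divergent alpha isotype best known from testis and muscle, read 2.54, 2.90 and 2.89 untreated and 5.59, 3.98, 3.03 and 3.98 in treated wild type. Only treated replicate 1 exceeded 4, so most of these values sit at background. The difference of 1.37 (95% interval -0.25 to 2.99) was not called (adjusted p = 0.133). Fitting only these 2 groups gave an adjusted p of 0.0396. The second Tuba8 probe set reached 4 on 1 array of the 15, mutant replicate 3, at 4.92.

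Among the beta isotypes, Tubb2a and Tubb2b are close relatives on chromosome 13, both prominent in neurons. Tubb2a read 8.90, 9.23 and 9.24 untreated and 13.00, 13.20, 12.66 and 12.93 in treated wild type. The groups stood far apart, by 3.82 ± 0.21 (adjusted p = 2.31e-09). That probe set has the _s_at suffix, for probes shared by related transcripts. The other one read 2.35, 2.73 and 2.33 untreated and 5.18, 5.05, 4.83 and 4.96 treated, a step of at least 2-fold (adjusted p = 6.33e-08). Both rose, from very different brightness.

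Tubb2b read 1.94, 2.59 and 2.12 untreated, at background, and 4.29, 5.80, 4.50 and 3.79 in treated wild type. Replicate 2 was well above the other treated arrays and replicate 4 was under 4. The fitted difference was 2.38 ± 0.42 (adjusted p = 0.000204). With values under 4 set to 4 it shrank to 0.65 and was not called (adjusted p = 0.181), so no fold is given.

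Tubb5 read 8.34, 8.45 and 8.54 untreated and 12.31, 11.65, 11.73 and 11.87 in treated wild type. All treated arrays were higher, by 3.44 ± 0.20 (adjusted p = 5.22e-09). Its second probe set moved from 5.14, 4.61 and 5.71 to 9.26, 8.99, 9.30 and 8.83, a 15.4-fold rise.

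Tubb6, an isotype linked in other work to regenerating muscle and to altered microtubule dynamics, read 3.56, 4.68 and 4.06 untreated. On the treated wild-type arrays it read 10.51, 10.11, 10.29 and 10.28. It had the widest gap between the groups of the 10 tested probe sets, 6.20 ± 0.23 (adjusted p = 7.21e-11). Untreated replicate 1 was under 4, which makes the fold a lower bound. The second Tubb6 probe set stayed between 2.00 and 2.73 on all arrays.

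The second comparison asks how treated livers of the C3H/HeJ strain differed from treated wild type. The isotypes divided. Tuba1a was 3.76-fold lower in the mutant, Tubb6 2.09-fold lower and Tubb5 1.86-fold lower. Tubb2b was called higher, at least 2.39-fold, but its groups overlapped and the call ended when some single arrays were left out. Tubb2a, Tuba4a and Tuba8 were not called. That made 3 genes lower, 1 higher and 3 not called of 7, where 17.3% of all genes were called lower and 12.6% higher (14.6% and 17.7% after centring, 15.9% and 16.6% after quantile normalisation).

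Tuba1a read 7.64, 7.48, 7.45 and 7.92 in the treated mutant. These arrays lay between the untreated and the treated wild-type ones without touching either. The difference from treated wild type was -1.91 ± 0.14 (adjusted p = 9.07e-07). Leaving out each array in turn kept it between -2.01 and -1.85.

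Tubb5 read 11.25, 10.51, 11.26 and 10.95 in the mutant, below all treated wild-type arrays. The difference was -0.90 ± 0.19 (adjusted p = 0.00282), and the second probe set, at 8.55, 8.01, 8.46 and 8.26, gave -0.78 ± 0.20 (adjusted p = 0.0108). Both Tubb5 probe sets thus fell. Tubb6 read 9.19, 8.95, 9.47 and 9.35, again below every treated wild-type array, with a difference of -1.06 ± 0.22 (adjusted p = 0.00233).

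Tubb2b ran the other way, at 6.07, 4.91, 6.11 and 6.53 in the mutant. Its lowest mutant array lay within the treated wild-type range, where replicate 2 had 5.80, so the groups overlapped. The difference was 1.31 ± 0.39 (adjusted p = 0.0212). The call depended on single arrays. It ended without treated wild-type replicate 1 (1.21, adjusted p = 0.0554) or 4 (1.04, 0.0724), without mutant replicate 1 (1.26, 0.0545) or 4 (1.10, 0.0631), and in a fit of only these groups (1.31, 0.0554).

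Tubb2a read 12.51, 12.45, 13.07 and 12.78 in the mutant, overlapping the treated wild-type arrays. Its difference of -0.24 had a 95% interval of -0.66 to 0.17 (adjusted p = 0.375), and the second probe set, at 5.29, 4.67, 5.27 and 5.08, gave 0.08 (-0.31 to 0.46). Tuba4a read 13.28, 12.88, 13.25 and 13.10, with a difference of 0.18 (-0.13 to 0.48; adjusted p = 0.388). Its second probe set read 12.20, 11.49, 12.20 and 12.10. For these genes a mutant difference of the size seen for Tuba1a lay outside the interval.

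Tuba8 read 6.21, 3.65, 6.91 and 5.94 in the mutant. Replicates 1, 3 and 4 exceeded every treated wild-type array, and replicate 2 was under 4. The difference of 1.53 (95% interval 0.03 to 3.03) was not called (adjusted p = 0.118). Without mutant replicate 2 it was 2.21 and called (adjusted p = 0.0202). Mutant replicate 2 was also the lowest of its group for Tuba4a, Tubb2a, Tubb2b, Tubb5 and Tubb6. Without it Tubb2b stayed higher (1.64, adjusted p = 0.00584), and Tubb5 (-0.74, 0.0094) and Tubb6 (-0.96, 0.00948) stayed lower.

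**Figure D2:**
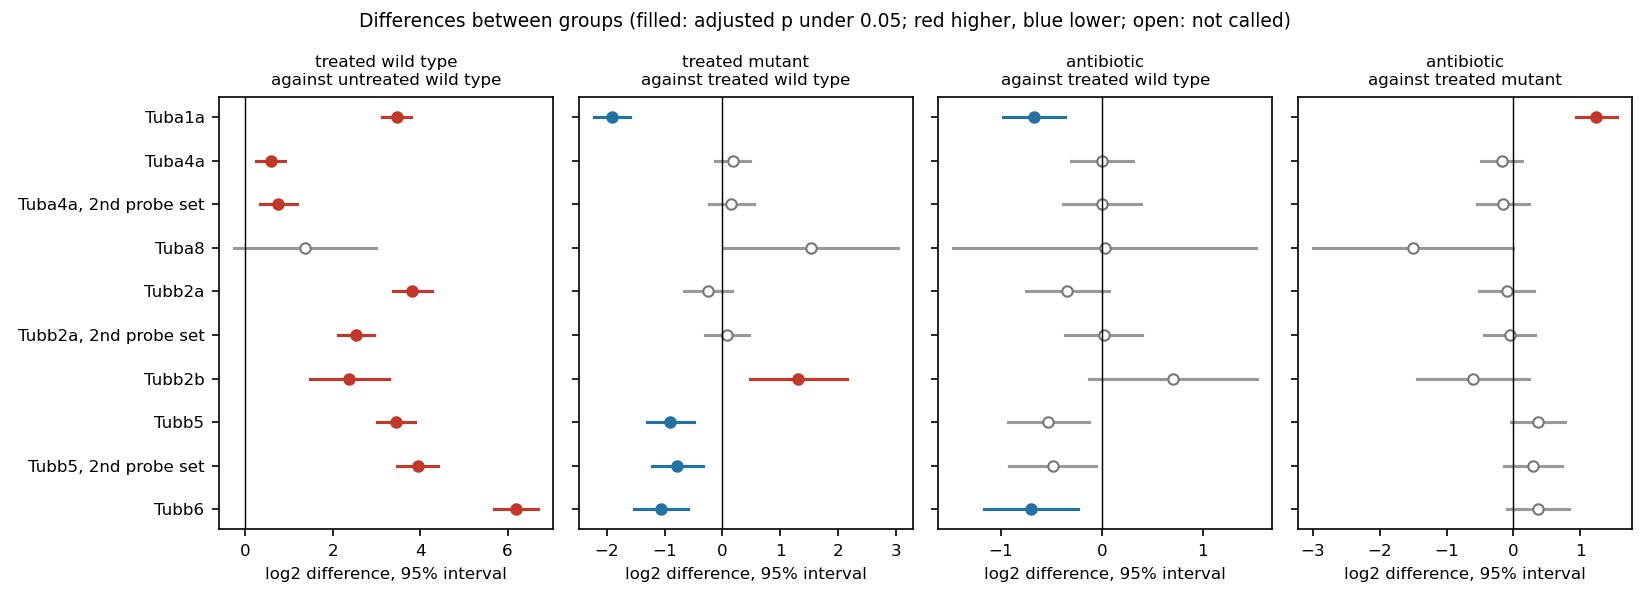
Log2 differences (horizontal axis) with 95% intervals for the 10 tested tubulin probe sets in 4 comparisons, filled and coloured where the limma adjusted p was under 0.05 (red higher, blue lower). In the mutant panel Tuba1a, Tubb5 and Tubb6 lie left of 0 and Tubb2b right of it, and in the antibiotic panel only Tuba1a and Tubb6 are filled.

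The third comparison asks what earlier antibiotics changed in treated wild-type liver. Tuba1a was 1.59-fold lower and Tubb6 1.62-fold lower after antibiotics, and no tubulin was called higher. The remaining 5 of 7 genes were not called. Over all genes 8.42% were called lower and 4.58% higher (6.8% and 7.18% after centring, 7.9% and 6.75% after quantile normalisation). This comparison and the previous one share the treated wild-type arrays, so their directions are not independent.

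Tuba1a read 8.59, 9.16, 8.97 and 8.73 in the antibiotic group, below every treated wild-type array and above every mutant array. The difference from treated wild type was -0.67 ± 0.14 (adjusted p = 0.00945), against -1.91 in the mutant. Tubb6 read 9.09, 9.72, 9.83 and 9.77, below treated wild type on every array, with replicate 1 lowest. Its difference of -0.70 ± 0.22 was barely called (adjusted p = 0.0493). The call held only when untreated replicate 1 or 2 was the array left out, and over all omissions the adjusted p ran from 0.0255 to 0.139. It also ended after centring (-0.63, 0.0628), without the filter (-0.70, 0.0702) and with array weights (-0.64, 0.0537).

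Tubb5 read 11.07, 11.54, 11.64 and 11.19 after antibiotics. All 4 were below the lowest treated wild-type array, replicate 3 only just. The difference of -0.53 (95% interval -0.93 to -0.12) was not called (adjusted p = 0.0821), nor was that of its second probe set, -0.49 (-0.92 to -0.05; adjusted p = 0.13), at 8.33, 8.69, 8.80 and 8.62. Tubb2b read 5.42, 5.44, 5.58 and 4.77, with a difference of 0.71 (-0.12 to 1.54; adjusted p = 0.257). Its values overlapped those of both other treated groups.

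Tubb2a read 12.87, 12.66, 12.86 and 12.04, a difference of -0.34 (-0.75 to 0.07; adjusted p = 0.273), with replicate 4 lowest. Its second probe set read 5.21, 4.95, 5.36 and 4.58. Tuba4a read 13.16, 12.94, 13.11 and 12.60, with the same mean as treated wild type (difference 0.00, -0.31 to 0.31), and its second probe set read 12.08, 11.80, 12.06 and 11.44. Tuba8 read 5.87, 3.11, 4.35 and 3.36, high on replicate 1 and under 4 on replicates 2 and 4 (difference 0.03, -1.47 to 1.53). Replicate 4 was the lowest antibiotic array for Tuba4a, Tubb2a and Tubb2b.

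Set side by side, the group means of the 7 isotypes were all lowest in untreated liver, and differed in the order of the treated groups. Tuba1a rose from 6.07 ± 0.20 (SD, n = 3) in untreated liver through 7.62 ± 0.22 in the mutant and 8.86 ± 0.25 with antibiotics to 9.53 ± 0.10 in treated wild type (n = 4 each). It was the only tubulin called between the antibiotic group and the mutant, 2.36-fold higher with antibiotics (1.24 ± 0.14, adjusted p = 0.000182). The other 6 genes were not called there, where 6.39% of genes were called higher and 4.93% lower. Tubb6 had the same order, at 4.10 ± 0.56, 9.24 ± 0.22, 9.60 ± 0.34 and 10.30 ± 0.16, and so did Tubb5, at 8.44 ± 0.10, 10.99 ± 0.35, 11.36 ± 0.27 and 11.89 ± 0.30. For both, the mutant and antibiotic groups did not differ beyond their spread (0.36, adjusted p = 0.304, and 0.37, 0.228).

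Tubb2b had the order untreated 2.22 ± 0.34, treated wild type 4.59 ± 0.85, antibiotic 5.30 ± 0.36 and mutant 5.91 ± 0.70, in which neighbouring treated groups were not called apart. Tuba8 had that order too, from 2.78 ± 0.20 untreated to 4.15 ± 1.06 in treated wild type, 4.17 ± 1.25 with antibiotics and 5.68 ± 1.41 in the mutant. Tubb2a was at 9.13 ± 0.19 untreated, then at 12.61 ± 0.39, 12.70 ± 0.28 and 12.95 ± 0.23 in the antibiotic, mutant and treated wild-type groups, none called apart. Tuba4a had the order of Tubb2b, but with nearly equal means in 2 of the treated groups: it was at 12.37 ± 0.06 untreated and at 12.95 ± 0.22, 12.95 ± 0.25 and 13.13 ± 0.18 in treated wild type, antibiotic and mutant livers.

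Against untreated wild type, the treated mutant had 7 of 7 genes called higher and 0 lower, beside 32.1% and 21.1% of all genes (24.3% and 28.9% after centring, 25.3% and 25% after quantile normalisation). Tuba1a was only 2.94-fold above untreated there, Tubb5 5.84-fold, Tubb2a 11.9-fold and Tubb6 at least 31.8-fold. Tuba8 was called in this comparison alone (adjusted p = 0.00537). All its untreated arrays and mutant replicate 2 were under 4, and it had passed the filter only through treated arrays, so the fitted difference of 2.90 ± 0.76 measures no fold. With values under 4 set to 4 it was 1.76 (adjusted p = 0.0279). The antibiotic group had 6 of 7 higher and 0 lower, beside 34% and 24.1% (27% and 31.6% after centring, 27.1% and 28.3% after quantile normalisation). Its values were 6.95-fold for Tuba1a, 7.55-fold for Tubb5, 11.2-fold for Tubb2a and at least 40.9-fold for Tubb6. Tubb2b and Tubb6, like Tuba8, needed treated arrays to pass the filter. The counts of tubulins called higher in the mutant and antibiotic groups are therefore no support on their own.

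To see whether isotypes changed unequally, the within-array log2 difference of 2 beta isotypes was compared between groups by an exact two-sided permutation test. Of 8 pairs planned, 4 could be formed, since the others need Tuba1b, and 12 tests were made. None had an adjusted p under 0.05, the smallest being 0.114, and an exact p could not go below 0.0571 with 4 against 3 arrays or 0.0286 with 4 against 4, before adjustment. No test against untreated arrays could therefore pass 0.05. A test of 4 against 4 arrays could pass after adjustment only if nearly all of these reached 0.0286 together. The lack of calls was thus largely fixed by the number of arrays and does not show that isotypes changed alike. Tubb5 minus Tubb6 was 3.77 to 4.78 on untreated and 1.44 to 1.80 on treated wild-type arrays, without overlap (exact p = 0.0571). Tubb5 minus Tubb2b was 5.85 to 8.07 in treated wild type and 4.42 to 5.60 in the mutant, also without overlap (exact p = 0.0286). Neither pair passed after adjustment (adjusted p = 0.114 for both), so unequal change was not established. Tubb2b was also near background, at 3.79 on treated wild-type replicate 4. A within-array difference could not tell which gene changed.

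Replicates of a group differed in the same direction for some isotypes. Tuba8 was highest on replicate 1 of treated wild type, replicate 3 of the mutant and replicate 1 of the antibiotic group. Tuba4a was also highest on that replicate in treated wild type and in the antibiotic group, and second highest there in the mutant. In the antibiotic group, replicate 1 was by contrast the lowest for Tuba1a, Tubb5 and Tubb6. Tuba8 deviated most, from -2.03 on mutant replicate 2 to 1.69 on antibiotic replicate 1.

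**Figure D3:**
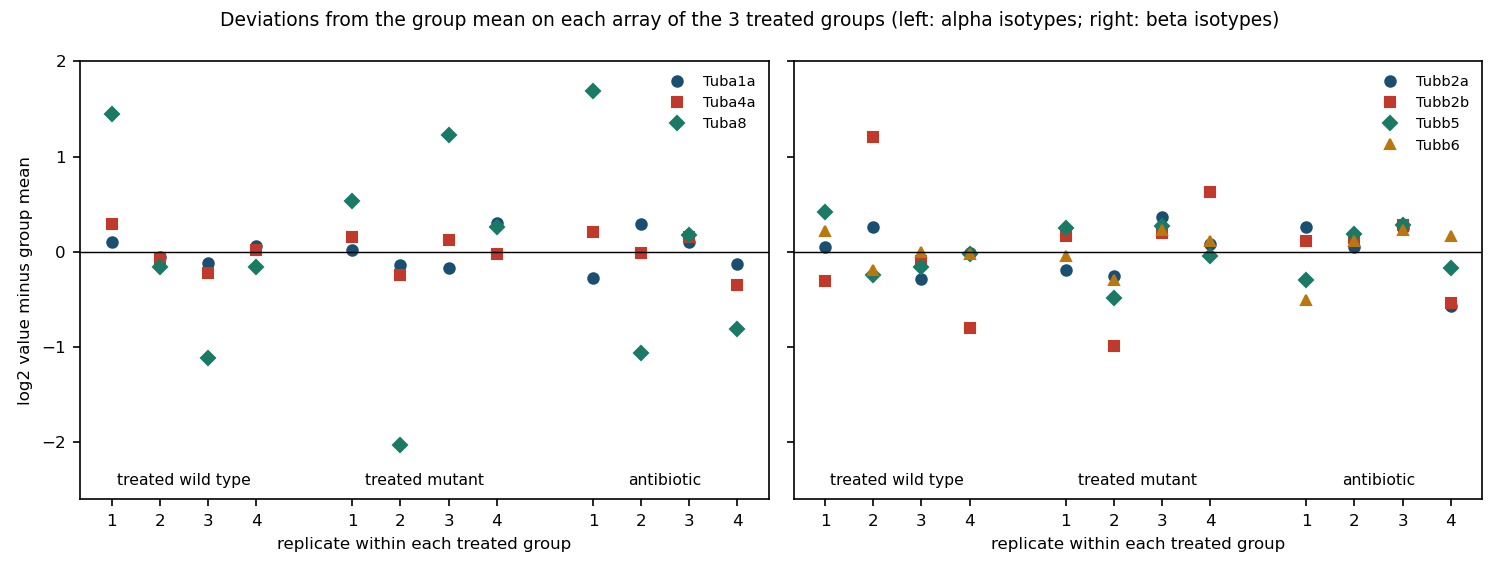
Deviation of the log2 value from its group mean (vertical axis) for the 7 measured isotypes on the 4 arrays of each treated group, alpha isotypes left and beta isotypes right. Tuba8 spreads furthest, from -2.03 to 1.69, Tubb2b next, and on antibiotic replicate 1 Tuba1a, Tubb5 and Tubb6 lie below their means while Tuba8 lies above.

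Markers of other cell types moved with several isotypes, and their part in these results was not tested. All 7 dividing cell markers on the array (Mki67, Top2a, Cdk1 and others) were higher in treated than untreated wild type, and all 7 were lower in the mutant and in the antibiotic group than in treated wild type. Their summed linear signal was 36 to 41 untreated, 5542 to 9293 in treated wild type, 1117 to 2070 in the mutant and 933 to 4535 with antibiotics. Treated wild type was highest and untreated lowest, as for Tuba1a, Tubb5 and Tubb6, and the mutant and antibiotic ranges overlapped. Within groups the arrays did not keep one order. Antibiotic replicate 1, the lowest of its group for those 3 tubulins, had the lowest dividing cell sum, 933, and the lowest stellate cell sum, 2944. Mutant replicate 2, the lowest of its group for Tubb5 and Tubb6, had the highest dividing cell sum, 2070. Treated wild-type replicate 3, the lowest of its group for Tuba1a, also had the highest, 9293. Treated wild-type replicate 2, the lowest of its group for Tubb5 and Tubb6, had by contrast the lowest dividing cell sum of that group, 5542.

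The 7 kept stellate cell markers summed to 525 to 1220, 8119 to 9703, 1798 to 2875 and 2944 to 5409 in the same group order, with Des below the filter, and 7 rose with treatment, 7 fell in the mutant and 5 with antibiotics. The 8 macrophage markers summed to 530 to 1520, 4430 to 7050, 1007 to 1444 and 2076 to 4437, and 7 rose, 7 fell and 5 fell in those comparisons. The overlap of the mutant and untreated macrophage sums covers markers that moved both ways: 3 of the 8 were higher in the mutant than untreated and 4 lower. Cd68, a lysosomal protein, averaged 9.32 in the mutant and 2.86 untreated, while Csf1r, a growth factor receptor, averaged 7.66 and 8.94.

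Other lists moved in the same comparisons. The 6 kept sinusoidal endothelium markers summed to 906 to 1503, 1681 to 2052, 873 to 1149 and 1562 to 2079 in the same group order, and 3 rose with treatment, 5 were lower in the mutant and 0 were called with antibiotics. Both kept neutrophil markers, S100a8 and S100a9, rose with treatment and were lower in the mutant and with antibiotics. Their sums were 11 to 13, 49 to 128, 13 to 31 and 14 to 24, and Mpo, Elane and Cxcr2 were below the filter. S100a8 averaged 3.39 in the mutant and 3.52 with antibiotics, and S100a9 3.31 and 2.98. Both also averaged under 4 untreated, so outside treated wild type these values sit close to background. Pf4, the 1 kept platelet marker, also rose with treatment and was lower in the mutant and with antibiotics, at 7 to 14, 69 to 159, 16 to 18 and 33 to 69. The 1 kept B cell marker and the 1 kept erythroid marker fell with treatment.

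Among cholangiocyte and progenitor markers, Prom1, a membrane protein of progenitor cells, and Sox9, a transcription factor, were higher in the mutant than in treated wild type, and Krt19 and Epcam were not called. The 4 kept (Krt19, Sox9, Epcam and Prom1, with Krt7 below the filter) summed to 29 to 37 untreated, 117 to 463 in treated wild type, 245 to 1066 in the mutant and 176 to 278 with antibiotics. Of these 4, 3 rose with treatment. Prom1 made up 53.4% to 94.5% of the sum on each treated array, so the sums are mostly that 1 gene. Its log2 mean was 6.78 in treated wild type and 9.03 in the mutant (adjusted p = 0.00883). The means of Sox9 were 3.97 and 5.07 (adjusted p = 0.00129), those of Epcam 4.22 and 4.18, and those of Krt19 3.84 in both. By array, the sums were 463, 123, 117 and 124 in treated wild type and 864, 245, 1066 and 575 in the mutant. In both groups Tuba8 was highest on the replicate with the highest sum and lowest on the one with the lowest sum. Among antibiotic arrays the sums were 278, 178, 260 and 176. There Tuba8 was again highest on the replicate with the highest sum, replicate 1, but lowest on replicate 2, not on replicate 4. Defining markers of T and NK cells (6) and of peripheral nerve (3) were below the filter on the array.

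Genes with the most similar profile were taken for the 4 isotypes that varied most over the 15 arrays, by the root mean square of the log2 difference after centring each gene on its own mean. For Tubb6 (SD 2.38) these were Prim1 (0.331), a DNA primase subunit, Lig1 (0.354), a DNA ligase, and Rbl1 (0.366), a retinoblastoma relative. For Tubb2a they were Atp2b2 (0.266), a calcium pump, Mthfd1l (0.314), a folate enzyme of mitochondria, and Aen (0.316), a nuclease. For Tubb2b they were Elovl7 (0.467), a fatty acid elongase, Cd9 (0.470), a tetraspanin, and Mpzl1 (0.605). For Tuba8 the nearest were Gucy2c (0.657), a guanylate cyclase receptor, Gdpd1 (0.669) and Sowahb (0.735), all farther off than for Tubb6 or Tubb2a. These distances describe profiles over shared arrays.

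Other genes of the microtubule system gave the setting, as counts of kept genes by their representative probe set, beside a median over all genes of 0.10 for treated against untreated wild type. The shares of all genes called higher and lower, against which the counts are to be read, were 35.5% and 26.3% with treatment, 12.6% and 17.3% in the mutant, and 4.58% and 8.42% with antibiotics. Of 11 further tubulins listed, 3 were kept, and all 3 rose: Tubb4b, another beta isotype, 8.12-fold, Tubg1, the gamma-tubulin that seeds microtubules, 2.43-fold, and Tube1, a centriolar tubulin, at least 3.33-fold. Their median difference was 2.47. The member isotypes had a median of 3.44, which is the value of Tubb5. In the mutant the 3 were lower than in treated wild type, Tubb4b 1.78-fold and Tube1 at least 2.28-fold, and with antibiotics only Tube1 was, at least 2.24-fold. Centring left 2 of the 3 called in the mutant.

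Of 22 genes for tubulin folding, 15 rose and 3 fell with treatment (median 0.64; 11 and 5 after centring, 15 and 5 after quantile normalisation). The prefoldin subunit Pfdn4 rose 2.59-fold and the chaperonin subunit Cct5 2.14-fold, while Tbcel, which destabilises tubulin, fell 2.34-fold. In the mutant 1 was higher and 2 lower, the prefoldin subunits Pfdn1 by 1.56-fold and Vbp1 by 1.28-fold, with a median of 0.02 beside 0.02 over all genes. With antibiotics 0 of 22 were called.

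Of 20 nucleation genes, 15 rose and 1 fell with treatment (median 0.95). Haus6 and Haus8, subunits of the augmin complex, rose at least 10.5-fold and at least 8.96-fold, and Tubgcp2 of the gamma-tubulin complex at least 10.2-fold. In the mutant 10 of 20 were lower than in treated wild type and 0 higher (median -0.45; 8 lower after centring). Haus5 was at least 2.75-fold and the centrosomal Cdk5rap2 at least 2.12-fold lower. With antibiotics 6 were lower and 0 higher (4 after centring), among them Haus8, 2.27-fold, and Cdk5rap2, at least 1.8-fold.

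Of 13 stability and plus-end genes, 6 rose and 2 fell with treatment. Stmn1, which sequesters tubulin dimers, rose 46.3-fold, Map4 3.17-fold and Map7d1 3.07-fold. In the mutant 2 were higher and 3 lower, Stmn1 by 2.27-fold and the microtubule polymerase Ckap5 by at least 2.34-fold. With antibiotics Map4 alone was called, 1.42-fold lower. Of 12 modification genes, 4 rose and 3 fell with treatment (2 and 3 under both other scalings), shares close to those of all genes. Tpgs2, a polyglutamylase subunit, rose at least 6.16-fold and Ttll12 3.43-fold, while Atat1, the alpha-tubulin acetyltransferase, fell at least 1.74-fold. In the mutant 4 were higher and 1 lower, with Tpgs2 3.42-fold lower and Atat1 called higher (adjusted p = 0.0268) from a treated wild-type mean of 3.13, at background, to 4.10, so no fold is given. With antibiotics Sirt2, a tubulin deacetylase, was 1.81-fold higher, the 1 call of the 12.

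Of 5 severing genes, 2 rose and 1 fell with treatment (2 and 2 under both other scalings): Fignl1 rose at least 59.5-fold and Katnbl1 1.77-fold, and the katanin subunit Katna1 was 1.42-fold lower. Fignl1 was the 1 severing gene called in the mutant, 1.94-fold lower (1 higher and 1 lower under both other scalings), and with antibiotics, 2.09-fold lower. Of 21 interphase motor genes, 7 rose and 5 fell with treatment (3 and 8 after centring, 6 and 7 after quantile normalisation), with the dynein light chain Dynll1 6.43-fold higher, Dync1li2 2.48-fold higher and the kinesin Kif1b 3.52-fold lower. These counts too were close to the shares of all genes. In the mutant 6 were higher and 1 lower (7 and 0 after centring), with Kif1c 1.73-fold and Kif1b 1.71-fold higher. With antibiotics 2 were higher, Kif1c 1.77-fold and Klc4 1.68-fold. The 3 kept actins rose with treatment: Acta2, the smooth muscle actin, 34.8-fold, Actg1 3.89-fold and Actb 1.39-fold. Acta2 was the 1 actin called in the mutant (4.39-fold lower) and with antibiotics (2.14-fold lower).

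**Figure D4:**
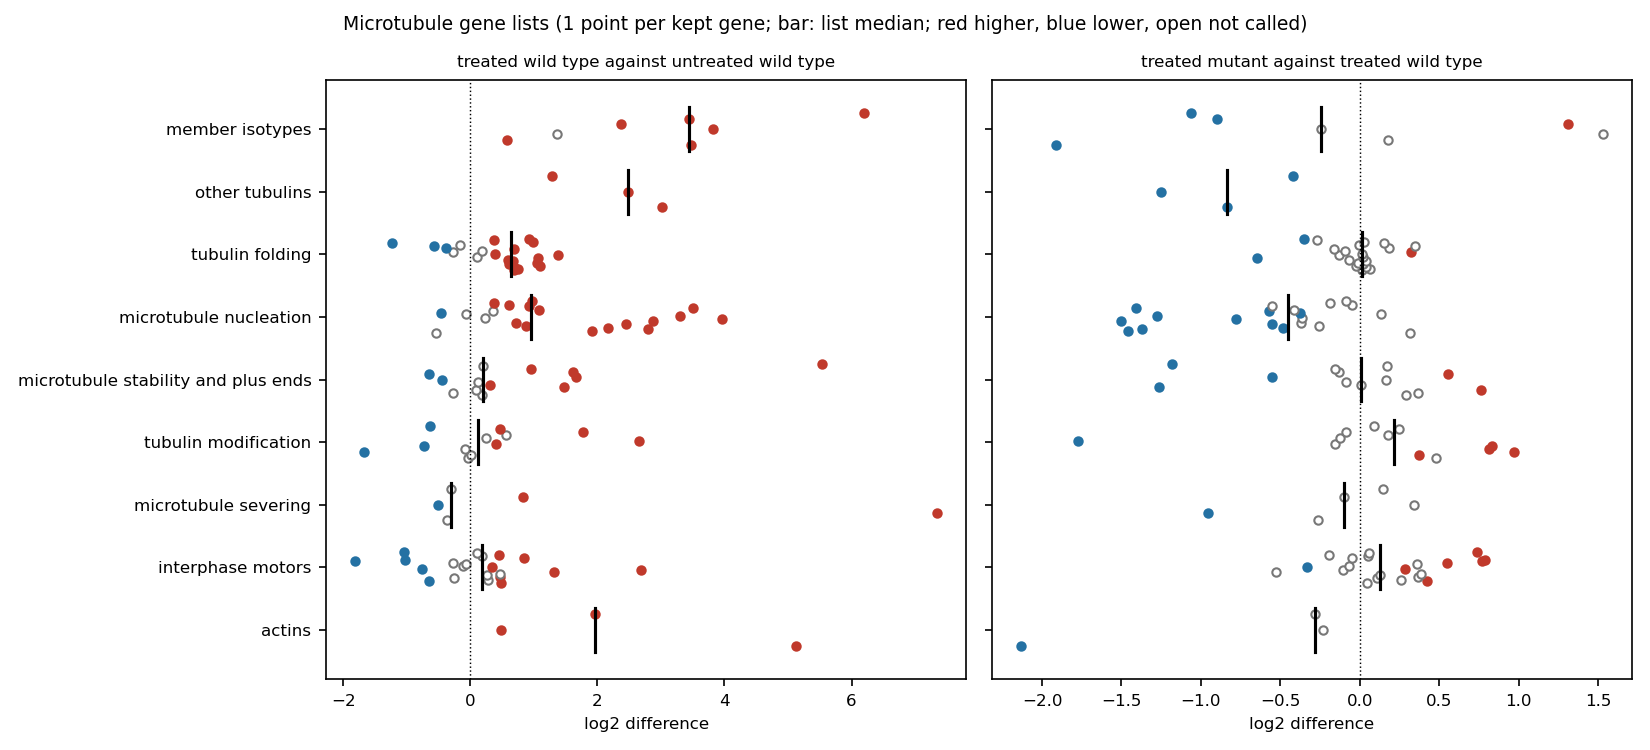
Log2 difference (horizontal axis) of each kept gene in the tubulin isotypes and 8 lists (microtubule genes and actins), for treated against untreated wild type and for the mutant against treated wild type, with a bar at each list median (red called higher, blue lower, open not called). The isotypes lie mostly between 2.38 and 6.20 with treatment, and in the mutant they lie on both sides of 0.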

How the data were processed

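Total liver RNA was amplified, labelled with biotin by a 3′ in vitro transcription kit, and read on Affymetrix arrays, per the labels' protocols. The authors deposited log2 values per probe set made with GCRMA, per the submitters' processing notes, with no version or settings given. These values were used as deposited, and array counts and signal over background, not read depth, limit precision. Probe sets were named through the platform annotation and the RefSeq gene table of GRCm38.p6: of 45101, 34945 carried 1 symbol, 932 several, 9160 none, and 64 were controls. Those with 1 symbol were kept at 4 or above on at least 3 arrays. Groups were compared with limma 3.58.1 in R 4.3.3 (4 group means on 15 arrays, 11 residual degrees of freedom), with Benjamini-Hochberg adjustment over the kept probe sets of all genes and a threshold of 0.05, after a test on simulated data. Folds against arrays under 4 were bounded from a floor of 4. Tables and plots used Python 3.11.15, pandas 2.3.3 and matplotlib 3.10.9.

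Named genes were the 9 tubulins with every probe set of their own, up to 3 called genes per microtubule list with the largest treatment difference and up to 2 in each of the mutant and antibiotic comparisons, and 3 profile neighbours for each of 4 isotypes. The tubulins and lists were chosen with earlier results of these data known. Alternatives were centring, quantile normalisation, values under 4 set to 4, no filter, a filter at 6, 1 or averaged probe sets per gene, array weights, only the groups compared, a trended robust prior, and leaving out each array. List calls and splits of all genes under other scalings, marker sums per array and the array-by-array reading were added after the values were seen.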

Additional observations from a re-analysis of the deposited data

Results flagged for a closer look

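On 2 occasions among 30 groups of 4 arrays, 1 array lay far from the rest by Dixon's ratio of gap to range above the 95% critical value for 4, which chance exceeds in about 1 in 20 groups. The second Tuba4a probe set was lowest on mutant replicate 2, at 11.49 beside 12.10 to 12.20 (ratio 0.850). Tubb6 was lowest on antibiotic replicate 1, at 9.09 beside 9.72 to 9.83 (ratio 0.846).

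Tuba1a differed between the antibiotic and mutant groups by 1.24 on the log2 scale (limma adjusted p = 0.000182), with no overlap between the 4 arrays of each.

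Of 5 probe sets that carry 2 symbols with a listed tubulin among them, 3 had every treated array above every untreated one, as 22.5% of all kept probe sets with 1 symbol did. The gap from the highest untreated to the lowest treated array was 2.01 for the one at 10.95 to 11.42 untreated, 0.29 for the one at 9.08 to 9.56 and 0.11 for the one at 5.79 to 6.66. They name no single gene. The other 2 stayed below 2.70 on all arrays.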

How the results depend on the processing

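Among single tubulin probe sets, 543 comparisons with an alternative kept direction and side of the threshold, 6 lost the call, 1 gained it and 2 changed sign, with values near 0: Tuba4a in antibiotic against treated wild type (-0.00 after quantile normalisation) and the second Tubb2a probe set in antibiotic against mutant (0.00 with array weights). The losses and the gain stand beside Tuba4a, Tuba8, Tubb2b and Tubb6 above, and the cause was not tested. Tubulins called lower with antibiotics fell from 2 to 1 after centring, without the filter and with array weights, and ranged from 1 to 2 as each array was left out. Tubulins called higher in the mutant went from 1 to 0 when only the groups compared were fitted, and from 0 to 2 over single omissions. A filter at 6 dropped Tuba8 and left 6 genes.

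Counts of probe sets called in the whole table, with fewer features tested, were 5938, 2917, 5136 and 5577 with 1 probe set per gene and 5947, 2948, 5181 and 5663 with averaged ones, for treated wild type against untreated, mutant against treated wild type, mutant against untreated and antibiotic against untreated. With fewer arrays fitted they were 1259 for antibiotic against treated wild type and 855 for antibiotic against mutant. Single omissions gave 1149 to 2380 for the former (1149 without treated wild-type replicate 4, 1160 without antibiotic replicate 1) and 979 to 1969 for the latter (979 without antibiotic replicate 3, 982 and 1028 without mutant replicates 1 and 2).

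Uncalled differences whose sign changed over single omissions were, in antibiotic against treated wild type, Tuba4a (-0.07 to 0.12), its second probe set (-0.09 to 0.14), Tuba8 (-0.54 to 0.51) and the second Tubb2a probe set (-0.09 to 0.17). In antibiotic against mutant they were Tubb2a (-0.18 to 0.09) and its second probe set (-0.19 to 0.09).

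No paired analysis was possible because the labels number the arrays across the groups and name no pairing. With 3 or 4 arrays a group, Tuba8 and Tubb2b near background are the least precise. The second Tubb2a probe set was also at background in untreated liver, and Tuba1b and Tuba1c are unmeasured here. Strain and Tlr4 change cannot be told apart.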
